A study of Saccharomyces cerevisiae with 4 samples.

Results

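The 380 narrowest hotspots of meiotic DNA breaks in the map, each under 100 bp wide, made up 10.5% of 3625 hotspots called on 16 chromosomes. They were selected on the measured breaks themselves: 5′ ends of Spo11 oligos were smoothed with a Hann window of just over 200 bp, stretches at or above 2.3 times the genome mean were kept, and stretches at most 200 bp apart were joined. The minimum was 25 bp in length and 10 RPM, that is, 10 oligos for every 1000000 in the map. Their width, oligo count and position therefore describe the choice and are given without a test. The oligos came from diploid budding yeast of the SK1 background after 4 h in sporulation medium. All cells carried SPO11-HA3-His6::kanMX on both homologues, so the map describes breaks by tagged Spo11, together with nuc1∆::LEU2, arg4-Nsp, his4X::LEU2, leu2::hisG, ura3, lys2 and ho::LYS2, and no group lacks these alleles. Of 4 datasets, 3 are technical datasets from culture 1 and 1 is from culture 2, and the files pool them. The pooled list holds 2024944 uniquely mapped oligos. Read names show 4 sequencing runs of 395612 to 587674 reads, and since the labels do not connect runs with datasets, run values are printed singly and not treated as replicates.

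Spo11 is a topoisomerase-like enzyme that breaks both DNA strands at the start of meiotic recombination and stays bound to the 5′ ends it makes. Endonucleolytic cleavage beside the break then releases Spo11 with a short oligo attached, and the 5′ end of that oligo marks the cut. In budding yeast Spo11 cuts mostly where nucleosomes leave DNA exposed, above all in promoters, and hotspot is the name for a place with many cuts.

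Narrow hotspots were weak. They held 17508 oligos in all, 0.865% of the map and 0.974% of the oligos in hotspots, on 27.8 kb or 0.232% of 12014676 bp. Counts per narrow hotspot ran from 21 to 72 oligos with a median of 46.5 (10.4 to 35.6 RPM, median 23.0), and the widths from 25 to 99 bp with a median of 77. Of the 380, 51 were under 50 bp wide, with 1533 oligos, and 329 were 50 to 99 bp wide, with 15975. The smoothed density at the summit was 2.35 to 3.94 times the genome mean (median 2.87). In the next width class, the 598 hotspots of at least 100 but under 150 bp, the median count was 86 and the median summit 4.22 times the mean. All 3245 hotspots of 100 bp or more had a median of 277 oligos. No narrow hotspot was joined from several stretches.

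**Figure D1:**
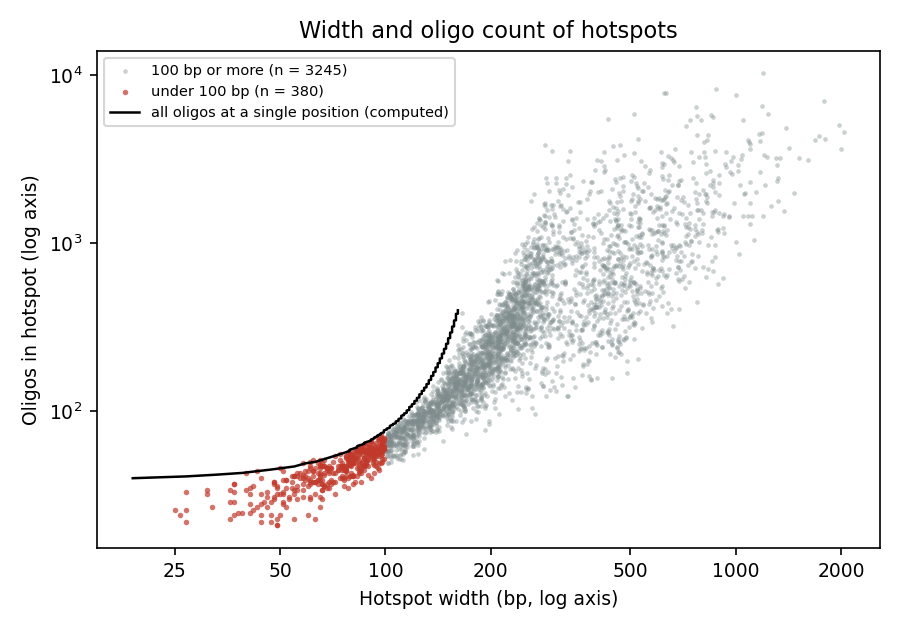
Each point is a hotspot, with its width on the x axis (bp, log axis) and its oligos on the y axis (log axis); red points are the 380 under 100 bp and grey points the 3245 wider ones. The black line gives the width that the rule assigns to oligos at a single position; narrow hotspots lie between 21 and 72 oligos, at the lower end of one continuous cloud.

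Width and strength are tied by the rule. If all oligos fell on a single position, the smoothing would turn 41 oligos into a hotspot of at least 25 bp and 78 oligos into one of at least 100 bp. Oligos spread evenly over 100 bp would need 77, over 200 bp 86 and over 300 bp 117 to reach 100 bp. A width under 100 bp is thus the stretch of smoothed curve over 2.3 times the mean, and is no measure of how tightly the cuts cluster. A comparison at like strength could hardly be made. Within 250 bp of the summit, 195 narrow hotspots had 69 to 84 oligos, and only 10 wider hotspots did, so no comparison rests on that pair. Across the limit nothing jumped: 83 hotspots of 80 to 89 bp had a median of 52 oligos, 86 of 90 to 99 bp had 59, 119 of 100 to 109 bp had 67 and 114 of 110 to 119 bp had 76.

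The members just inside and just outside the limit overlapped in strength. Just inside, the members named were all 99 bp wide. A hotspot on XI (473182 to 473280) had 69 oligos, and that between DNF3 and INP2 (XIII, 584154 to 584252) had 68. There were 67 between the GTPase gene YPT6 and TMA7 (XII, 669067 to 669165) and 62 between YJR124C and ENT3 (X, 654291 to 654389). Between the peroxisome gene PEX19 and UBC9, the SUMO-conjugating enzyme gene (IV, 337324 to 337422), there were 61. Just outside, at 100 bp, stood the gap between the sodium pump gene ENA1 and RSM10 (IV, 538983 to 539082) with 64 oligos, and 3 hotspots of 58 oligos each: between HNT2 and PFU1 (IV, 1073510 to 1073609), between YPR027C and YOP1 (XVI, 621927 to 622026) and between TDA6 and CUR1 (XVI, 842998 to 843097). At 101 bp, the gap between the exocyst gene SEC5 and TAF10 (IV, 789316 to 789416) held 70.

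Of the 10 narrow hotspots with most oligos, 3 lay between the ends of protein-coding genes, and 1 was on XI and was given no gene context. The others were in gaps with the start of a protein-coding gene. CAJ1, which encodes a DnaJ-type chaperone partner, and ISD11, needed for mitochondrial iron-sulfur cluster assembly, are transcribed away from each other, and the gap between them (V, 249813 to 249909) held 72 oligos (95% Poisson interval 56.3 to 90.7). The runs E8YXO9P, FE8RWPF, FFA0GWK and FIDXMPL gave 10, 24, 25 and 13 of these, which is 25.3, 40.8, 44.1 and 27.3 RPM, so no single run made this peak. The same gap held a tRNA gene and 3 hotspots, the strongest with 228 oligos at a distance of 661 bp. Between BET1, encoding a SNARE of transport from the endoplasmic reticulum to the Golgi, and CFD1, encoding a scaffold of cytosolic iron-sulfur cluster assembly (IX, 348942 to 349038), the 4 runs gave 8, 23, 22 and 17 oligos, 70 in all. On the 5′ side of SLO1 (V, 551193 to 551288) there were 69 oligos, in runs 20, 22, 14 and 13, and the nearest other hotspot was 4643 bp away. The gap there also holds a tRNA gene.

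Further members of this group had 67 to 69 oligos. The one on XI given above had 18, 18, 19 and 14 in the runs. On the 5′ side of IES4, a subunit gene of the INO80 chromatin remodeller (XV, 689412 to 689506), there were 68, with 12, 19, 19 and 18 in the runs. DNF3, which encodes a lipid flippase, had 68 on its 5′ side, and DPL1, which encodes an enzyme of sphingolipid breakdown (IV, 1052347 to 1052442), had 67. The other 3 lay in convergent gaps, where both neighbouring protein-coding genes end. There were 68 oligos between the protease gene WSS1 and the casein kinase gene YCK1 (VIII, 372578 to 372675). Between the dynactin-related gene ARP10 and TMN2 (IV, 667912 to 668002) there were 67, in a gap that also holds a tRNA gene. HOG1, the kinase gene of the osmotic stress response, and AVL9 (XII, 373967 to 374057) had 67 between them, likewise in a gap with a tRNA gene. ARP10 and TMN2 had 17, 17, 9 and 24 oligos in the runs, or 15.9 to 50.5 RPM. Of the 67 oligos between HOG1 and AVL9, 39 shared one position and strand. The authors' curated map, described below, has only 10 hits in those bounds.

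The narrowest members were close to the smallest count that the rule admits, 21 oligos. The narrowest was 25 bp long on XI (271829 to 271853, 26 oligos, with 5, 4, 11 and 6 in the runs). Next came 26 bp nearest the gap of RIM21 and MSB3 (XIV, 79892 to 79917, 24 oligos), with the summit 357 bp inside a gene. Its runs had 1, 7, 11 and 5 oligos, and a hotspot of 1619 oligos lay 613 bp away. The 5′ side of PRE1, a subunit gene of the proteasome core (V, 177709 to 177735), had 27 bp with 33 oligos, in runs 8, 10, 10 and 5. The convergent gap of YDR029W and the repair gene RAD28 (IV, 501696 to 501722) had 26, and the 5′ side of PAL2 (VIII, 298806 to 298832) had 22, of which run FIDXMPL gave 13.

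Within 250 bp of the summit, 5′ ends had a similar spread in narrow hotspots and in the next class. The distance between the first and last quartile of 5′ ends within 250 bp of the summit had a median of 62 bp in narrow hotspots (10th to 90th percentile 24.9 to 113) and of 62 bp in the next class (26.7 to 99). It was 75 bp in all hotspots of 100 bp or more. The difference in medians, narrow minus next class, depended on the reach. It was −5 bp with 5′ ends within 100 bp of the summit and 8.5 bp within 500 bp. In the 25 bp on either side of the summit the mean density was 4.43 times the genome mean in narrow hotspots against 6.62 in the next class. From 26 to 50 bp it was 1.74 against 2.80, and from 51 to 100 bp 0.751 against 1.17. Beyond 100 and up to 250 bp it was 0.240 against 0.254, under the genome mean in both. The classes thus differed near the summit and hardly beyond 100 bp, and the effect of this on the quartile distance was not tested. The called bounds of a narrow hotspot held a median of 61.0% of the oligos within 250 bp, against 79.6% in the next class. It was 92.3% at 150 to under 200 bp and 97.4% at 200 to under 300 bp. Shorter bounds cover less of this fixed stretch, so the share follows from the choice of width.

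**Figure D2:**
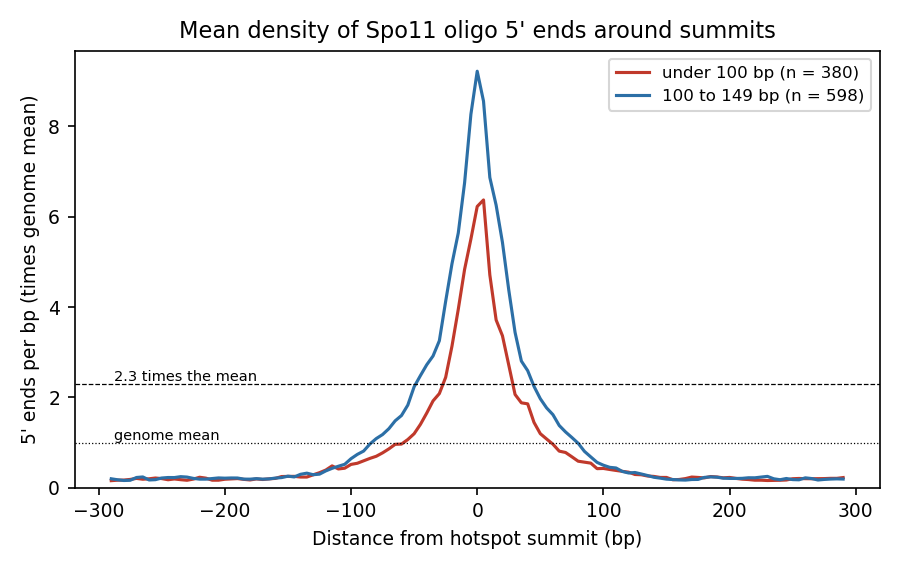
The y axis gives 5′ ends per bp in multiples of the genome mean, averaged over hotspots and over 11 neighbouring positions, against distance from the summit in bp (x axis). The curve of the 380 narrow hotspots (red) is lower than that of the 598 hotspots of the next class (blue) and meets it beyond 100 bp; dashed and dotted lines mark 2.3 times the mean and the mean.

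The quartile distance varied among narrow hotspots, and its continuous range is cut here at 30 and 100 bp. Other width classes were not counted by these cuts. In 56 of 380 (14.7%) the quartile distance was 30 bp or less; these held a median of 57.5 oligos, with a median inside share of 80.3%. In 270 (71.1%) it was 31 to 100 bp. In 54 (14.2%) it was over 100 bp, with a median of 47 oligos inside the bounds and of 98 within 250 bp. The median of the members' own inside shares was 45.9%. In the median member of the last group, most ends within 250 bp thus lay outside the called bounds, and their source was not tested. Quartile distances varied in the next class too, from 0 to 197 bp, against 0 to 267 bp in narrow hotspots. The 10th percentile was 26.7 bp in the next class and 24.9 bp in narrow hotspots. Between SLO1 and YER181C the distance was 18 bp and on the 5′ side of IES4 17 bp, whereas between YDR029W and RAD28 it was 119 bp.

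Oligo ends on opposite strands kept the spacing of staggered Spo11 cuts in narrow hotspots too. Pairs of top-strand and bottom-strand ends were most frequent at an offset of 2 positions, with the bottom-strand end at the higher coordinate, at 4.87 times the median over offsets of −20 to 20. In the next class this offset was also the best, at 5.24 times. With each position and strand counted once, the values were 2.40 and 2.16 times. The strands were nearly even over all narrow hotspots, with 8922 of 17508 ends (95% Wilson interval 50.2 to 51.7%) on the top strand. Single members were less even: in 33 of 380 (8.68%, 6.25 to 11.9%) one strand held over 80% of ends, against 12 of 598 (2.01%, 1.15 to 3.47%) in the next class. Narrow members also held fewer oligos, and the part of counting error in this difference was not tested.

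A narrow hotspot held a median of 18 positions and strands with a cut (1 to 31), and its most hit one took a median of 21.6% of its oligos. In the next class the medians were 32 and 16.5%. The median share of the most hit one fell further with width, to 13.4% at 150 to under 200 bp, 11.8% at 200 to under 300 bp and 8.75% at 300 bp or more. In 17 narrow hotspots (4.47%, 2.81 to 7.05%) a single position and strand held 50% or more, against 10 of 598 (1.67%, 0.911 to 3.05%). Narrow members held fewer oligos in shorter bounds, and the part of this in these differences was not tested. These 17 had a median of 10 distinct reads (reads that differ in start, end or strand), whereas the other 363 had 32. Reads carry no molecular identifiers, so copies of 1 molecule and repeated cuts at 1 base cannot be told apart.

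The extreme case lay nearest the gap of YET3 and the bromodomain gene BDF2 (IV, 331301 to 331388), with its summit 322 bp inside a gene. All 65 oligos there began at top-strand position 331345 and were 38 nt long, so they were a single distinct read, seen 21, 2, 16 and 26 times in the runs. Nearest the gap of RCM1, an rRNA methyltransferase gene, and the histone deacetylase gene HDA1 (XIV, 594236 to 594320), 59 of 61 oligos shared one position. The summit there lay 1052 bp inside a gene. Run FIDXMPL had 0 of these oligos where the others had 16, 23 and 22. A count of 0 there allows up to 3, or 6.31 RPM. The gap of HOG1 and AVL9, which also holds a tRNA gene, had a pair of such members 375 bp apart. The first (373616 to 373658) had 41 of 44 oligos at one position, with 9, 15, 11 and 9 in the runs. The second, already given with 67 oligos, had 39 at one position and only 8 distinct reads. On XI (134772 to 134812), 30 of 35 oligos shared a position and run FE8RWPF gave 32. Nearest PAM1 and BTT1 (IV, 963393 to 963476), 49 of 59 did, and the summit lay 25 bp inside a gene.

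**Figure D3:**
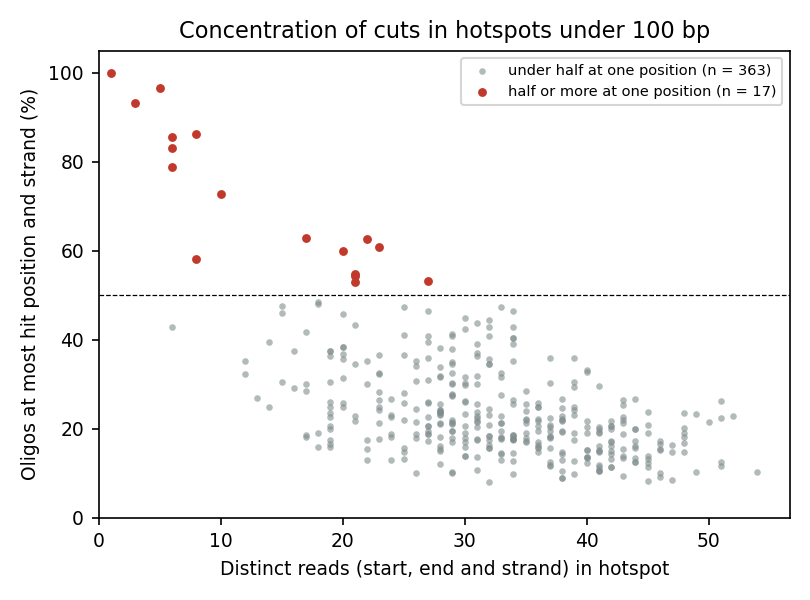
Each point is a narrow hotspot, with its number of distinct reads on the x axis and the share of its oligos at the most hit position and strand on the y axis (percent). The 17 members at or above 50% (red) have 1 to 27 distinct reads, and the other 363 (grey) have 6 to 54.

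The authors' curated map, which gives raw hits per position, kept most narrow hotspots as they were. In 365 of 380 (96.1%) the hit count inside the bounds equalled the number of listed oligos, in 3 it was higher, by at most 1, and in 12 lower. Almost all of the loss was in 3 members. The member nearest the gap of RCM1 and HDA1 went from 61 to 0, and the pair between HOG1 and AVL9 from 44 to 3 and from 67 to 10. The other 9 lost 1 or 2 hits each. The single read at YET3 and BDF2 was kept with 64 hits. Called on the curated map, the same rule gave 381 narrow hotspots. Of those on the read list, 4 had no counterpart: the 3 just named and one on XI (322019 to 322081) with 23 oligos.

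Sequencing runs give a check on reads that the choice did not use, although 3 of the datasets share a culture and copies of the same molecule may recur in several runs, as the single read at YET3 and BDF2 could. A run left out is therefore not independent of the runs that chose. Narrow hotspots were chosen anew on 3 runs (394 to 403 hotspots) and measured in the run left out. Their median density there was 3.28 to 3.68 times that run's mean, against 3.78 to 3.83 in the runs that chose them. Between 73.2 and 77.6% reached 2.3 times the mean, against 86.2 to 88.6% of the next class. Of all windows of 77 bp, the median narrow width, 7.48% reached 2.3 times the mean in run E8YXO9P, 7.24% in FE8RWPF, 7.21% in FFA0GWK and 6.91% in FIDXMPL. The mean itself was exceeded by 93.5 to 95.9% of narrow hotspots and 98.5 to 99.8% of the next class. How many of all windows exceeded the mean was not counted. The median count behind the narrow values was 9 to 12 oligos, and 1 to 5 narrow members had 0.

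The narrow width itself returned less often than the peak. Called in the run left out, a hotspot overlapped 61.4 to 69.2% of the narrow ones, against 88.0 to 91.4% of the next class and 96.8 to 98.0% of all of 100 bp or more. Of the narrow ones, 25.6 to 35.6% were narrow again and 30.2 to 37.7% were 100 bp or wider. Of the next class, 17.3 to 20.2% were narrow in the run left out. A single run alone gave 463 to 531 narrow hotspots, or 12.5 to 14.2% of its hotspots. In the pooled map a run's oligos in the 380 members made up 0.834 to 0.904% of that run. The largest run share within a member had a median of 36% and reached 50% or more in 17 members.

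**Figure D4:**
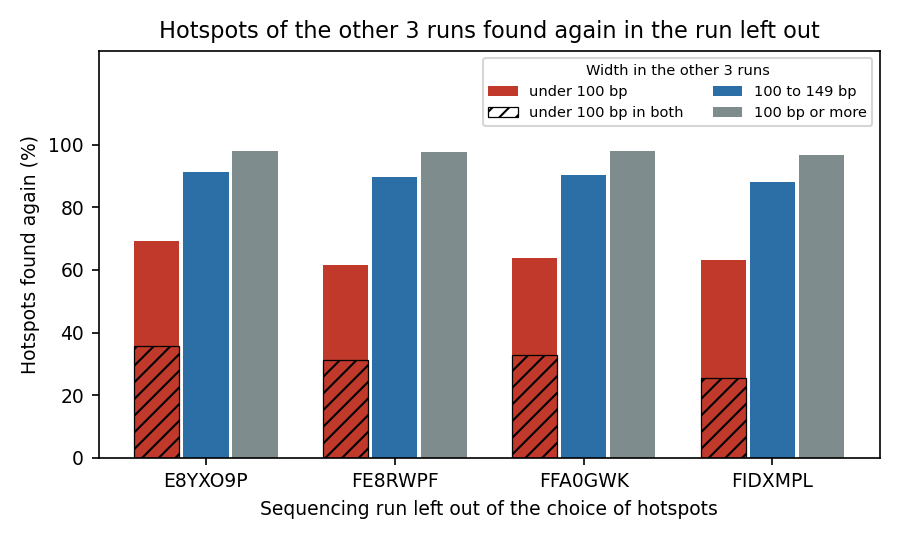
Bars give the percentage of hotspots, chosen on 3 runs, that overlapped a hotspot called in the run left out (x axis), by width in the 3 runs: under 100 bp (red), the next class (blue) and 100 bp or more (grey). The hatched part of the red bars marks hotspots under 100 bp in both, 25.6 to 35.6%.

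By gene context, most narrow hotspots, like most wider ones, lay in or beside gaps with a gene start. A larger share than of all wider hotspots lay inside genes. A gap here is the stretch between neighbouring protein-coding genes, and each of 350 narrow hotspots on 15 chromosomes was assigned to the gap nearest its summit, including 60 with a summit inside a gene. Divergent gaps, which hold 2 gene starts, took 125 (35.7%, 95% Wilson interval 30.9 to 40.9%), tandem gaps 192 (54.9%) and convergent gaps 33 (9.43%, 6.79 to 12.9%). For the next class the shares were 36.9%, 56.9% and 6.15% (4.46 to 8.43%), and for all of 100 bp or more 41.3%, 55.2% and 3.50% (2.90 to 4.21%). Of the 33 assigned to convergent gaps, 16 had their summit inside a gene, so these shares and the share inside genes overlap. Of 81 summits that did lie inside convergent gaps, 17 were narrow (95% Wilson interval 13.5 to 31.1%), against 103 of 1282 (8.03%) in divergent and 170 of 1742 (9.76%) in tandem gaps. Among summits that lay inside a gap, the convergent share of narrow ones was 5.86% (3.69 to 9.19%), that of the next class 4.55% (3.05 to 6.73%) and that of all wider ones 2.27% (1.78 to 2.89%). Hotspots are not replicates and no test was made: for the convergent share, the intervals of narrow and all wider hotspots do not overlap, and those of narrow hotspots and the next class do.

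Summits more than 100 bp inside a gene were found for 53 of 350 narrow hotspots (15.1%, 11.8 to 19.3%). The share was 8.96% (6.88 to 11.6%) in the next class and 5.17% (4.44 to 6.01%) at 100 bp or more. Seen from the genes, 53 of 211 such hotspots were narrow (25.1%, 19.7 to 31.4%), against 9.34% of those with a summit in a gap. Without the 17 members with 50% or more at a single position, 49 of 335 (14.6%) remained inside genes and 31 (9.25%) were assigned to convergent gaps.

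**Figure D5:**
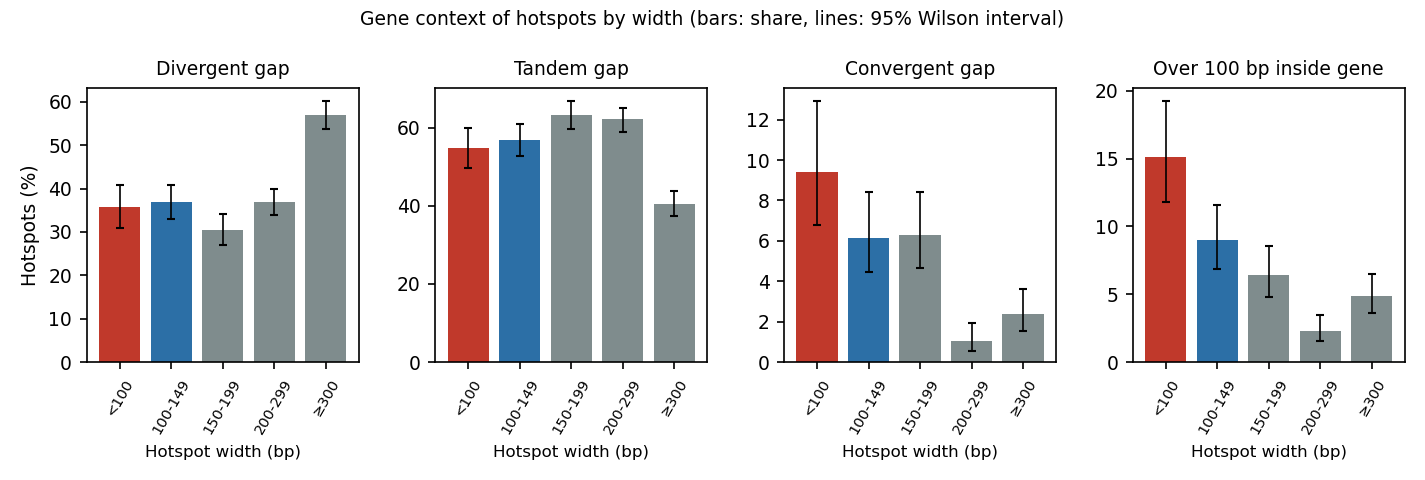
Bars give the percentage of hotspots in each width class (x axis, bp) whose summit was nearest a divergent, tandem or convergent gap, and, counted separately, whose summit lay over 100 bp inside a gene; lines are 95% Wilson intervals. Narrow hotspots (red) have the highest bars for convergent gaps (9.43%) and gene interiors (15.1%), and the interval overlaps that of the next class (blue) for convergent gaps but not for gene interiors.

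Of the 350, 261 (74.6%) were the only hotspot assigned to their gap, against 76.1% in the next class and 81.1% at 100 bp or more. Of the 89 that shared a gap, 3 were its strongest hotspot, against 29 of 136 in the next class and 314 of 577 at 100 bp or more. All hotspots assigned to a gap were narrow in 69 of 1176 divergent gaps with a hotspot (5.87%), in 167 of 1755 tandem ones (9.52%) and in 28 of 127 convergent ones (22.0%). Gaps with a narrow summit inside had a median length of 435.5 bp, against 454 bp for the next class and 503 bp for all wider hotspots. A tRNA gene lay in the gap for 35 of 290 (12.1%, 8.81 to 16.3%), compared with 9.88% (7.58 to 12.8%) in the next class and 6.25% (5.42 to 7.21%) at 100 bp or more.

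Of the gene lists examined, proteasome genes had the largest share with a narrow hotspot assigned to the gap on their 5′ side. The proteasome is the protease that degrades ubiquitin-marked proteins. Of 31 of its genes with a 5′ gap, 7 had a narrow hotspot there (22.6%, 95% Wilson interval 11.4 to 39.8%), and in all 7 it was the only kind. Among 5565 genes, 438 had one (7.87%), and in 305 (5.48%) it was the only kind. The proteasome interval overlaps those of histone genes (20%, 5.67 to 51.0%) and RNA polymerase subunit genes (17.9%, 7.88 to 35.6%). The members were PRE8 (62 oligos), PRE9 (57), PRE5 (54), PRE4 (46), PRE6 (45) and PRE1 (33), which encode subunits of the core, and RPN11 (58), which encodes the deubiquitinase of the regulatory particle. Another 20 had wider hotspots only and 4 had none. The rule for names allows 3 members a list; PRE5, PRE4, PRE6 and PRE1 were added here after their values were seen.

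Cytosolic ribosomal protein genes had a narrow hotspot in 13 of 132 cases (9.85%), led by RPS14B (65 oligos), RPL41A (62) and RPL35B (60), while 63 had wider ones only and 56 none. The summit of the RPL41A hotspot lay inside a gene, and the gap on the 5′ side of RPL41A is only the nearest one. Subunit genes of RNA polymerases had one in 5 of 28. The divergent pair RPA43 and RPA190, both of RNA polymerase I, shared a narrow hotspot of 58 oligos (XV, 960349 to 960430) beside a wider one, and RPB5 had 39. Of 10 histone genes, 2 had one, the divergent pair HTA1 and HTB1, whose shared gap held 34 oligos in 31 bp (IV, 915067 to 915097) and no wider hotspot. Genes of amino acid biosynthesis had one in 3 of 68 cases (4.41%): ASN2 of asparagine synthesis (62), TRP1 of tryptophan synthesis (53) and LYS9 of lysine synthesis (34). Among meiotic recombination genes 2 of 28 had one, MEK1, which encodes a meiotic checkpoint kinase (49), and MRE11, which encodes a nuclease that releases Spo11 oligos (38). MRPL7 (31) was the only one of 56 mitochondrial ribosomal protein genes.

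No narrow hotspot lay on the 5′ side of 20 aminoacyl-tRNA synthetase genes, 15 glycolysis genes, 17 TCA cycle genes or 23 sterol synthesis genes. Between 11 and 20 genes of each of these lists had wider hotspots there. The upper Wilson bounds of the shares with a narrow hotspot were 16.1%, 20.4%, 18.4% and 14.3%, in the order given. All of these bounds lie above the 7.87% of all genes, so these lists are too short to show a lack of narrow hotspots. Neighbouring members of a list may use the same gap, and no list was tested, so these counts are descriptions.

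Neighbours of narrow hotspots mostly held more oligos than the narrow hotspots themselves, but no more than neighbours of other hotspots. The nearest other summit was a median of 1407 bp away (highest 22353 bp), against 1455.5 bp in the next class. It was within 500 bp for 46 of 380 (12.1%, 9.20 to 15.8%), against 9.36% in the next class and, at 100 bp or more, 5.42% (4.70 to 6.26%). In 357 cases (93.9%) the neighbour had more oligos, which follows in part from the choice of weak members. This was so for 80.3% in the next class and 45.6% at 100 bp or more. The median count of the neighbour was 225.5 oligos, against 245 in the next class and 248 at 100 bp or more.

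All 16 chromosomes had narrow hotspots. The share of a chromosome's hotspots that were narrow ran from 4.17% on IX (5 of 120, 1.79 to 9.38%) to 13.8% on XI (30 of 217, 9.86 to 19.0%). The lowest and highest intervals do not overlap, but they were picked as the extremes of 16 chromosomes, and hotspots are not replicates. No difference between chromosomes is read from them. Within 20 kb of chromosome ends 11 of 60 hotspots were narrow (18.3%, 10.6 to 29.9%), compared with 10.1% from 20 to 120 kb and 10.5% farther in, and both of these values lie just under the lower bound of the interval near the ends, which rests on few hotspots.

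Oligos in narrow hotspots were close in length to those in wider hotspots. Their mean length was 30.4 ± 5.99 nt (SD over 17508 reads), against 30.5 nt in the next class, 30.6 ± 6.21 nt in hotspots of 100 bp or more and 29.7 ± 6.73 nt outside hotspots, counting both listed ends. The difference from hotspots of 100 bp or more was −0.24 nt (95% interval −0.32 to −0.15), and in run FIDXMPL alone it was −0.052 nt (−0.21 to 0.10), an interval that includes 0. Oligos of 25 to 32 nt made up 61.7% (95% Wilson interval 61.0 to 62.4%), against 62.0% in the next class, 60.8% in all hotspots of 100 bp or more and 52.9% outside. The share was also 61.7% in hotspots of 150 to under 200 bp and of 200 to under 300 bp, and 60.2% at 300 bp or more. Those under 25 nt made up 11.3%, 10.7% and 19.4%. Within runs, the 25 to 32 nt share in narrow hotspots was 59.3 to 63.1% and outside hotspots 50.9 to 54.3%. Reads of one hotspot share their place, so these intervals are too narrow for a comparison between hotspots.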

How the data were processed

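Spo11 oligos were sequenced on the 454 platform, per the labels' protocols. Per the file headers, the deposited read list holds uniquely mapped reads on S288C (start and end positions and other fields), and the deposited curated map holds raw hit counts per position; for the authors' aligner, curation and build version, nothing is given in the sources used here. Per the labels' protocols, tailed and linker-ligated oligos were amplified by few PCR cycles and size-selected on gels. The members and gene lists were chosen with earlier results of these data known. Lengths and hotspots were computed with Python 3.11.15, numpy 2.4.6, pandas 2.3.3 and scipy 1.17.1. The 5′ end was the listed start on the top strand and the listed end on the bottom strand, the positions at which the curated map counts hits. Chromosome lengths are the highest listed positions. The hotspot rule was tested on simulated data. Named by rule were the 10 with most oligos, the 5 narrowest, the 5 with the largest share at one position among those with 30 or more oligos and the 5 on either side of the limit; for each gene list, up to 3 members by most oligos. Comparisons are descriptions with no p-value, since hotspots and runs are not replicates.

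Names and orientation came from 6002 protein-coding genes of a newer S288C annotation (R64), whose coordinates are not printed. As a check of map against annotation, the shift that left fewest oligos inside genes was within 100 bp in all 219 windows (50 kb each) of 15 chromosomes; on XI it had a median of 375 bp in 9 windows, so XI was not named (30 narrow hotspots). Intervals (95%) and the floor of 3 counts cover counting error only. No sequence is printed, and the planned promoter motifs were not analysed here.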

Additional observations from a re-analysis of the deposited data

Results flagged for a closer look

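Narrow hotspots of the curated map appeared at 2 places where the read list, which all comparisons use, had 0 oligos and a count of 0 allows up to 3. Between YFL064C and COS4 (VI, 4148 to 4196) the curated map had 42 hits in 49 bp. Between CUR1 and YPR158W-A (XVI, 844215 to 844298) it had 56 hits in 84 bp. At 2 further places the read list had fewer oligos and no hotspot: between YCR101C and YCR102C (III, 304014 to 304104) it had 11 where the curated map had 67, and between YPL277C and SAM3 (XVI, 17018 to 17114) it had 30 where the curated map had 61.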

How the results depend on the processing

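The number of narrow hotspots followed the smoothing and the limit: a smoothing window of just over 150 bp gave 588 and one of just over 300 bp 235, and a limit of 75 bp gave 170 and one of 150 bp 978. Changing the threshold, joining distance, minimum count or map (curated), counting positions once and leaving out or isolating runs gave 257 to 531, within 1.5 times of 380. The median count was 37 and 69 oligos at limits of 75 and 150 bp, and 23 with identical reads counted once. The convergent share fell outside its interval with the widest window (6.28%) and for summits inside a gap only (5.86%); divergent and tandem shares stayed inside theirs. The median share at the most hit position was 22.6 to 23.4% with a run left out and 18.8% with identical reads counted once. The difference in median spread between narrow hotspots and the next width class was 0 bp. It was −5 bp with 5′ ends within 100 bp and 8.5 bp with 5′ ends within 500 bp. The length difference of −0.24 nt was −0.14 nt in run FFA0GWK alone, −0.052 nt in FIDXMPL alone and −0.38 nt with identical reads counted once. The cause of these shifts was not tested. Leaving out members with 50% or more at a single position, measuring in a left-out run and setting the spread against the next width class in place of wider hotspots of like count were chosen after seeing the data. Promoter motif settings were not run. No paired analysis was possible because the files pool the datasets. Depth limits single members: even the one with most oligos, 72, had a Poisson interval of 56.3 to 90.7, which holds the counts of all 10 leading members.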
